A study of Mus musculus with 24 samples.

Results

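The genes described here are 10 members of the AP-1 family of transcription factors (Fos, Fosb, Fosl1, Fosl2, Jun, Junb, Jund, Atf3, Maff and Mafk), chosen by name and matched by Ensembl identifier among the 39017 genes counted in each library. Earlier results of these data were known when they were chosen. All 10 were measured, and all 10 passed the filter for testing, a mean of at least 5 counts over the libraries, which left 14361 genes. The transcriptome was sequenced in NIH 3T3, a fibroblast line that was derived from mouse embryos and grows without limit, in 24 libraries, 3 for each of 8 groups. All groups carried a pBabeNeo retroviral vector and had been selected as pooled stable lines rather than single clones, and the methods describe the triplicates as separate transductions. The groups were empty vector (EV), empty vector at sub-confluence (EVsub), TAZ4SA and YAP5SA (TAZ and YAP with alanines in place of serines that the LATS1/2 kinases phosphorylate, which makes them hyperactive), TAZ-CAMTA1 and YAP-TFE3 (fusions of the N terminus of TAZ or YAP to the C terminus of CAMTA1 or TFE3), and full-length CAMTA1 and TFE3. The CAMTA1 and EVsub cells were collected at sub-confluence and the other 6 groups after 48 h of confluence, so CAMTA1 was compared with EVsub and the other proteins with EV.

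AP-1 is a dimer of basic leucine zipper proteins. Jun proteins (Jun, Junb, Jund) pair with each other or with Fos proteins (Fos, Fosb, and the Fos-related antigens Fosl1 and Fosl2), and the dimers bind the sequence known as the TPA response element. Atf3 is a stress-induced member that pairs with Jun proteins and binds the related cyclic AMP response element, while Maff and Mafk are small Maf proteins, which lack a transactivation domain of their own and pair with CNC and Bach factors. In fibroblasts, Fos, Fosb, Jun and Junb are classical immediate-early genes of the serum response, and AP-1 often binds the same enhancers as TEAD, the DNA-binding partner of YAP and TAZ.

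The libraries held 16471181 to 30132586 counts (median 22298975). TAZ4SA replicate 2 was the shallowest, and its 10 most abundant genes took 12.4% of its counts, the highest share of the 24 libraries. The fibroblast label was checked against 8 markers, whose summed level was 20190 to 52900 CPM (counts scaled by library size) in every library, and Fn1 or Col1a2 was the most abundant in each group. Epithelial markers summed to 0.31 to 9.25 CPM over the 24 libraries and endothelial markers to 0.38 to 12.1 CPM. The 5 myeloid markers summed to 3.44 to 5.0 CPM in EV, 16.5 to 65.4 in TAZ4SA, 22.95 to 26.1 in TAZ-CAMTA1, 83.1 to 132 in YAP5SA and 118 to 244 in YAP-TFE3. The highest of them was Cd68 in EV, TAZ4SA and YAP5SA, at means of 3.175, 40.6 and 66.9 CPM. In TAZ-CAMTA1 and YAP-TFE3 it was Lyz2, at means of 21.6 and 160 CPM. The macrophage marker Adgre1 was at 0 counts in every group. The part of the myeloid markers in the results was not tested. Of the mouse genes that the constructs are named after, Camta1 was at 9.96 ± 1.1 CPM (SD, n = 3) in the CAMTA1 cells and 4.76 ± 0.825 in EVsub, with no overlap, and was at 4.64 ± 0.339 in TAZ-CAMTA1 and 4.85 ± 0.0231 in EV. Mouse Tfe3 was at 72.2 ± 3.59 CPM in the TFE3 cells, 79.8 ± 3.97 in YAP-TFE3 and 89.0 ± 4.33 in EV, so it does not mark those constructs. Its highest levels were in YAP5SA (163 ± 4.58) and TAZ4SA (133 ± 37.7). Wwtr1, which encodes TAZ, was at 162 ± 9.41 CPM in TAZ4SA, 151 ± 9.96 in TAZ-CAMTA1, 149 ± 14.4 in YAP5SA and 134 ± 3.79 in EV. Yap1 was at 101 ± 9.5 CPM in YAP5SA, 161 ± 8.2 in YAP-TFE3 and 184 ± 12.5 in EV, so Yap1 does not mark the YAP constructs either. Ccn1, a well-known YAP/TAZ target, was at 56.1 ± 11.4 CPM in EV, 375 ± 101 in TAZ4SA and 2130 ± 369 in YAP5SA.

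Promoter sequences were available from RefSeq (GRCm38.p6) for 9 of the 10 genes, with 11 start sites in all, and Fosl1 was the gene without an entry. The windows ran from 250 bases before to 50 bases after the start. They were searched on both strands for the TPA response element (TGACTCA) and the cyclic AMP response element (TGACGTCA). The shorter core of the latter (TGACG, which overlaps the full element) was also searched, as were a TPA-like element known from the Jun promoter (TGACATCA), the core of the site that TEAD binds (GGAATG) and the CArG box of serum response genes. The 5 promoters shown, of 4 genes that rose in TAZ4SA and YAP5SA and of Jun, which fell, were chosen after the values below had been seen. Each is the 150 bases before the start, 5′ to 3′ on the gene's strand, with matches in capitals.
Atf3 (chr1:191183334-191183483, minus strand): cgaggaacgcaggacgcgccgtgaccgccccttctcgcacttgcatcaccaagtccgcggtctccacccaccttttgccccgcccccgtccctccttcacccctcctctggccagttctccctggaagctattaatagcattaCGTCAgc
Maff, second of 3 starts (chr15:79347370-79347519, plus strand): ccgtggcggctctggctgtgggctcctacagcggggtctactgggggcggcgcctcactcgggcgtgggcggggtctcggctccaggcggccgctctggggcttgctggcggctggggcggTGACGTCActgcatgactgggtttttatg
Mafk (chr5:139791386-139791535, plus strand): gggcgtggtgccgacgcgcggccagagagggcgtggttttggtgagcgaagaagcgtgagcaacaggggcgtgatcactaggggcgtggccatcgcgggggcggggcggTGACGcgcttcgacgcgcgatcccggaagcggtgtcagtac
Junb (chr8:84978749-84978898, minus strand): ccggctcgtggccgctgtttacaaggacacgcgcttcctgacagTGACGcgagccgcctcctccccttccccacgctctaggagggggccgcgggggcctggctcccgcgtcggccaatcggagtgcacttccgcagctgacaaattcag
Jun (chr4:95052223-95052372, minus strand): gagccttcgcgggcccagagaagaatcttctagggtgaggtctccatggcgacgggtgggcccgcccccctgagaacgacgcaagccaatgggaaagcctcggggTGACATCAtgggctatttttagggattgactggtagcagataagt
The short core TGACG was found in 7 of the 11 windows, those of 6 of the 9 genes (Fos, Fosb, Junb, Atf3, Maff and Mafk). It was in 20.8% of all 32851 RefSeq promoter windows of that length. The full cyclic AMP response element was in the second Maff window only, 29 bases before the start, and in 1.79% of all windows. TGACATCA began 45 bases before the start of Jun and 45 bases before the third start of Maff, and 3.62% of all windows held it. None of the 9 genes' windows held the TPA response element, which 5.20% of all windows held, the TEAD core (14.7%) or a CArG box (1.63%). Sequence farther than 250 bases before a start was not searched. For Jund the RefSeq start (chr8:70697739) lies before the GENCODE start of the gene (chr8:70698949), and the sequence next to the GENCODE start was not searched. In the GENCODE annotation the Atf3 stretch and the second Maff stretch lie within the span of their genes (chr1:191170296-191218039 and chr15:79346621-79359076), which have longer transcripts, and the other 3 lie at the 5′ edge of theirs. A match is a description of the letters and was not tested as a binding site.

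The first question was how the hyperactive forms of TAZ and YAP changed the family in confluent cells. In TAZ4SA, 6 of the 10 genes rose against EV (Fosl1, Fosl2, Junb, Atf3, Maff and Mafk) and 1, Jun, fell, where 31.1% of all genes tested rose and 26.4% fell. In YAP5SA the same 6 genes rose and Jun fell, where 36.3% of all genes rose and 34.9% fell. The median log2 fold change of the 10 genes was 0.96 in TAZ4SA and 0.87 in YAP5SA, beside 0.05 and 0.01 over all genes tested. Both comparisons share the 3 EV libraries. Counts of mitochondrial genes made up 3.80% to 4.10% of the EV libraries, 2.95% to 3.19% of TAZ4SA and 2.04% to 2.23% of YAP5SA, with no overlap, and the part of this difference in the results was not tested. Values are CPM after TMM normalization, p-values are from the quasi-likelihood test of edgeR, adjusted by the Benjamini-Hochberg method over all 14361 genes, and a call is an adjusted p under 0.05. Fewer cells with a transcript and less of it per cell cannot be told apart in these bulk samples. Scaling by library totals in place of TMM lowered fold changes of TAZ4SA against EV by about 0.19 and those of YAP5SA by about 0.37 on the log2 scale. These are mean shifts of the scaling factors, and single genes could shift by other amounts. Scaling by library totals turned the split of all genes from 4465 higher and 3788 lower to 3424 and 4747 in TAZ4SA, and from 5208 and 5012 to 3565 and 6775 in YAP5SA. All 14 calls but 1, Fosl1 in YAP5SA, held under it, and 1 was gained, a fall of Fosb in YAP5SA.

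**Figure D1:**
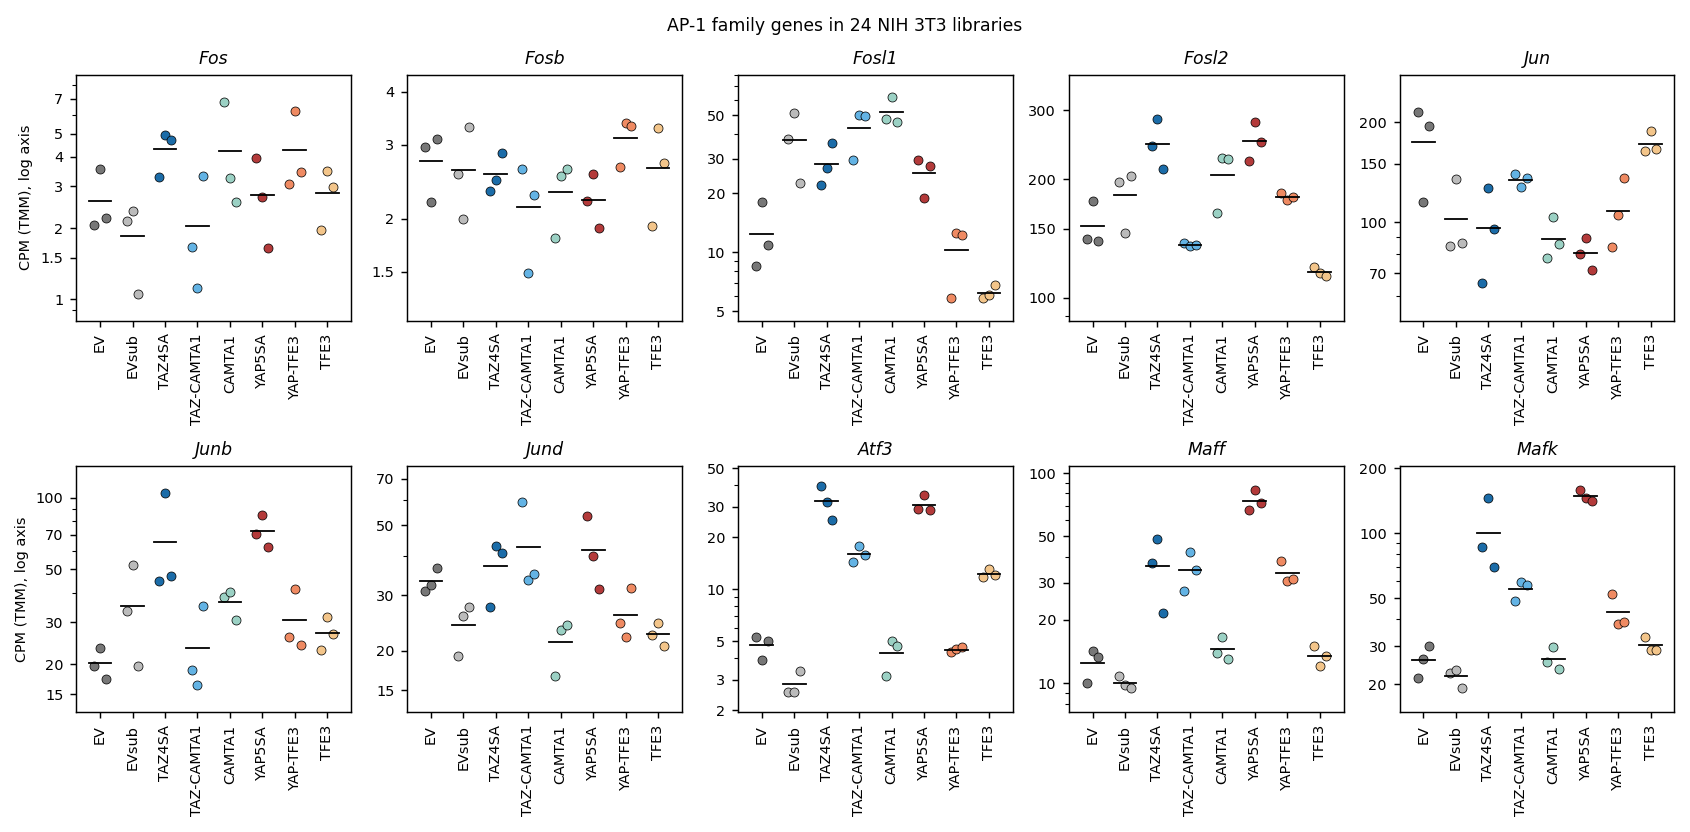
Level of each AP-1 family gene in CPM (log axis, a different range in each panel) in the 24 libraries, by group; each point is a library and each line the mean of 3. Atf3, Maff and Mafk in the TAZ4SA and YAP5SA libraries lie above every EV library, while Fos and Fosb overlap between neighbouring groups throughout.

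Atf3 showed the largest change of the family. It was at 5.32, 3.92 and 5.04 CPM in the 3 EV libraries, 39.8, 31.8 and 25.2 in TAZ4SA, and 29.0, 34.9 and 28.8 in YAP5SA. Every library of both hyperactive forms was thus above every EV library. The log2 fold change was 2.76 ± 0.18 (SE; 6.76-fold; adjusted p = 1.17e-10) in TAZ4SA and 2.70 ± 0.18 (6.48-fold; adjusted p = 4.29e-11) in YAP5SA. Atf3 was at 14.4, 17.8 and 15.7 CPM in TAZ-CAMTA1 and at 11.7, 13.04 and 12.2 in TFE3, and these groups did not overlap with each other, with EV or with the hyperactive forms. In YAP-TFE3 it was at 4.31, 4.49 and 4.63 CPM, inside the range of EV. The lowest values were those of EVsub, at 2.55, 2.53 and 3.38 CPM, and CAMTA1 was at 3.14, 4.997 and 4.70.

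The small Maf genes rose with both hyperactive forms and more so with YAP5SA. Maff was at 10.01, 14.2 and 13.3 CPM in EV, 37.4, 48.7 and 21.7 in TAZ4SA, and 66.4, 83.2 and 72.4 in YAP5SA. Its log2 fold change was 1.52 ± 0.21 in TAZ4SA (2.86-fold; adjusted p = 3.72e-06) and 2.56 ± 0.22 in YAP5SA (5.91-fold; adjusted p = 1.01e-09), and the 3 groups did not overlap. Mafk was at 21.3, 26.1 and 29.9 CPM in EV, 86.6, 145 and 69.4 in TAZ4SA, and 158, 146 and 141 in YAP5SA. All libraries of both hyperactive forms were above EV, and TAZ4SA replicate 2 lay within the range of YAP5SA. Its log2 fold change was 1.957 ± 0.20 in TAZ4SA (3.88-fold; adjusted p = 3.88e-08) and 2.52 ± 0.20 in YAP5SA (5.76-fold; adjusted p = 3.43e-10). Both small Maf genes also rose in both fusion groups. Maff was at 27.5, 42.1 and 34.4 CPM in TAZ-CAMTA1 and 38.2, 30.7 and 31.4 in YAP-TFE3, and Mafk at 48.7, 59.2 and 57.8 and at 52.1, 38.1 and 38.7. In TFE3 and CAMTA1 they were near the empty vector groups, Maff between 12.1 and 16.6 CPM and Mafk between 23.4 and 33.2. Per kilobase of exon, the 2 genes together summed to 11.4 ± 1.85 CPM (SD, n = 3) in EV, 39.6 ± 15.1 in TAZ4SA and 66.5 ± 2.68 in YAP5SA.

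Among the Fos subfamily, the Fos-related antigens rose, and Fos and Fosb did not pass the test in either group with TMM scaling. Fosl2, the most abundant Fos gene per kilobase in EV, was at 141, 177 and 139 CPM in EV, 243, 284 and 212 in TAZ4SA, and 222, 280 and 249 in YAP5SA. Both hyperactive groups were above EV in every library, with log2 fold changes of 0.70 ± 0.14 (1.62-fold; adjusted p = 0.000216) and 0.72 ± 0.14 (1.65-fold; adjusted p = 9.21e-05). Fosl1 was at 8.53, 17.95 and 10.9 CPM in EV, 22.1, 26.8 and 35.8 in TAZ4SA, and 29.7, 18.9 and 27.5 in YAP5SA. It lay above EV in every library of both, with log2 fold changes of 1.19 ± 0.31 (2.28-fold; adjusted p = 0.00271) and 1.03 ± 0.31 (2.04-fold; adjusted p = 0.00587). For YAP5SA this call was lost with library totals, at an adjusted p of 0.0773. Of the exon bases of Fosl1, 57.2% are shared with Ccdc85b on the other strand, which had 11054 counts over the 24 libraries together, and whether the counting used the strand is not given in the sources used here.
Fos and Fosb, the classical immediate-early members, were low. Fos was at 2.07, 3.53 and 2.21 CPM in EV, 3.27, 4.95 and 4.71 in TAZ4SA, and 3.95, 2.70 and 1.65 in YAP5SA, with a log2 difference of 0.72 ± 0.42 (adjusted p = 0.149) in TAZ4SA. Fosb lay between 1.49 and 3.38 CPM in all 24 libraries, and its lowest count in a library was 30. It differed from EV by -0.30 ± 0.25 in YAP5SA (log2; adjusted p = 0.286), and by -0.68 with library totals, which passed (adjusted p = 0.0273).

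In the Jun subfamily, Junb and Jun moved in opposite directions. Junb was at 19.7, 23.5 and 17.4 CPM in EV, 44.7, 105 and 47.0 in TAZ4SA, and 70.2, 84.6 and 62.3 in YAP5SA. Every library of both groups was above EV, and the log2 fold change was 1.69 ± 0.34 (3.23-fold; adjusted p = 0.000218) in TAZ4SA and 1.84 ± 0.34 (3.59-fold; adjusted p = 5.09e-05) in YAP5SA. TAZ4SA replicate 2 had by far the highest Junb value of its group, and without that library the log2 fold change was 1.18 (adjusted p = 0.00346).
Jun was at 215, 115 and 194 CPM in EV, 65.4, 127 and 95.4 in TAZ4SA, and 80.2, 89.7 and 71.8 in YAP5SA. TAZ4SA overlapped with EV through EV replicate 2, and YAP5SA did not. The log2 fold change of Jun was -0.87 ± 0.23 (adjusted p = 0.00269) in TAZ4SA and -1.12 ± 0.23 (adjusted p = 0.000184) in YAP5SA, 1.83-fold and 2.17-fold lower. Jund, usually the most constant of the Jun genes, was at 30.8, 32.4 and 36.6 CPM in EV, 27.5, 42.9 and 40.8 in TAZ4SA, and 53.5, 39.9 and 31.5 in YAP5SA, with differences that did not pass the test (adjusted p = 0.576 and 0.199).

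The opposite movement of Jun and Junb altered the make-up of the subfamily more than its sum. Per kilobase of exon, the 3 Jun genes summed to 83.5 ± 15.5 CPM (SD, n = 3) in EV, 80.7 ± 27.7 in TAZ4SA and 81.7 ± 11.4 in YAP5SA. Jun made up 64.6% ± 8.56 of that sum in EV, 37.4% ± 2.27 in TAZ4SA and 31.1% ± 2.17 in YAP5SA. Junb made up 10.99% ± 3.95, 34.2% ± 6.83 and 38.6% ± 3.42 of it. The Jun share in TFE3 was 68.2% ± 0.616, and in the remaining 4 groups it lay between 49.3% and 54.6%.
For the 4 Fos genes the sum per kilobase was 23.4 ± 4.83 CPM in EV, 41.6 ± 3.65 in TAZ4SA and 39.9 ± 0.298 in YAP5SA. Fosl2 held most of it in EV, at 67.8% ± 4.66. Fosl1 held 25.6% ± 4.83 in EV, 33.3% ± 7.46 in TAZ4SA, 31.3% ± 7.03 in YAP5SA and 57.2% ± 7.65 in TAZ-CAMTA1. Its share was 46.7% ± 13.6 in EVsub, 52.1% ± 3.74 in CAMTA1, 19.0% ± 5.98 in YAP-TFE3 and 18.4% ± 1.37 in TFE3. Fos and Fosb together held less than Fosl1 in every library. These shares are descriptions and rest on the union of annotated exons as the length of each gene, part of which is shared with a gene on the other strand for Fosl1 and all 3 Jun genes. Jund shares 52.6% of its bases with Gm11175, which had 0 counts. Junb shares 7.5% with Prdx2, which had 132251 counts over the 24 libraries beside 20434 for Junb, and Jun shares 7.3% with Junos, which had 2940 beside 66910 for Jun.

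**Figure D2:**
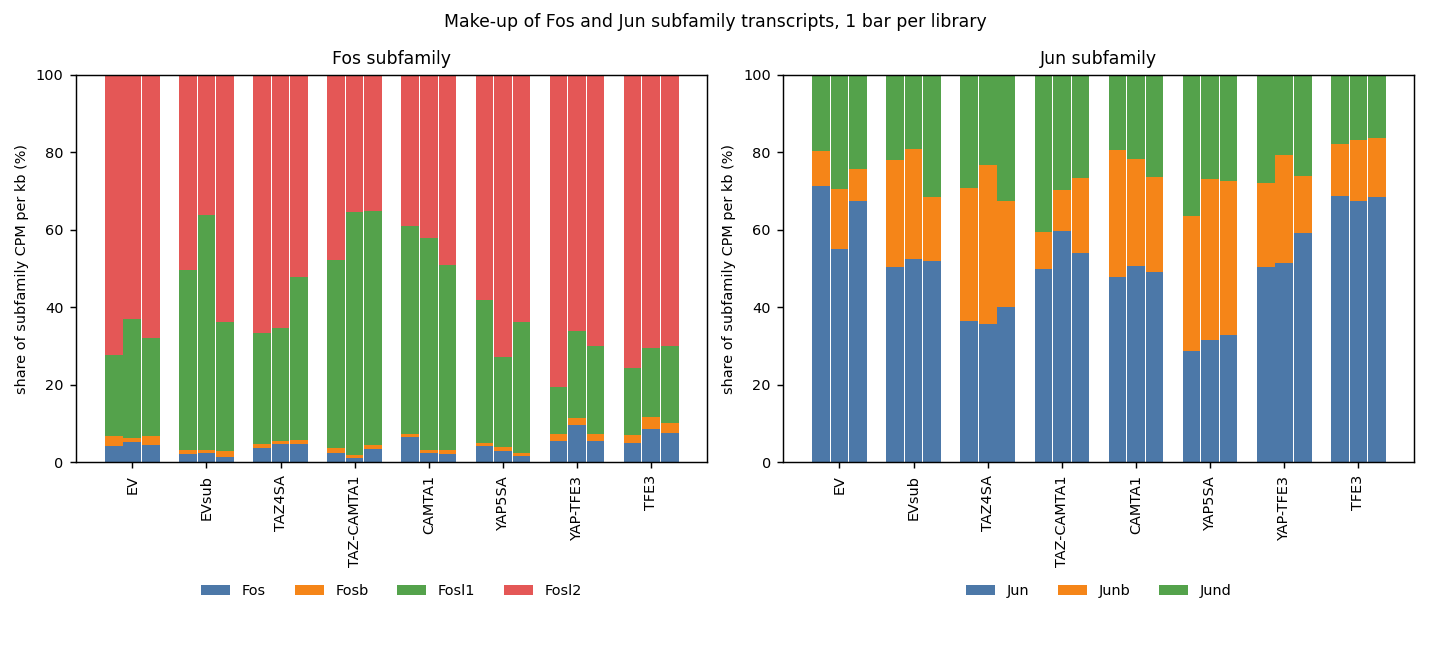
Share of each gene (%) in the summed CPM per kilobase of the 4 Fos genes (left) and the 3 Jun genes (right), with 1 stacked bar for each library and 3 bars a group. Jun holds 64.6% of the Jun subfamily on average in EV and 31.1% in YAP5SA, and Fosl1 holds 57.2% of the Fos subfamily in TAZ-CAMTA1 and 18.4% in TFE3.

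The second question was how the fusion proteins changed the family against EV. In TAZ-CAMTA1, 4 of the 10 genes rose (Fosl1, Atf3, Maff and Mafk) and none fell, where 12.5% of all genes rose and 8.98% fell. In YAP-TFE3, 2 rose (Maff and Mafk) and Jun fell, where 10.6% of all genes rose and 4.74% fell. The median log2 fold change of the 10 genes was 0.29 in TAZ-CAMTA1 and 0.22 in YAP-TFE3, beside values within 0.01 of 0 over all genes.
Fosl1 was at 29.4, 50.3 and 49.3 CPM in TAZ-CAMTA1, above every EV library, and at 5.82, 12.6 and 12.3 in YAP-TFE3, overlapping with EV. Its log2 fold change was 1.79 ± 0.31 (3.46-fold; adjusted p = 0.000239) in TAZ-CAMTA1 and -0.27 ± 0.32 (adjusted p = 0.646) in YAP-TFE3. Atf3 rose 3.34-fold in TAZ-CAMTA1 (log2 1.74 ± 0.18; adjusted p = 3.81e-07), and in YAP-TFE3 its log2 difference was -0.09 ± 0.19 (adjusted p = 0.82).
Maff rose 2.77-fold in TAZ-CAMTA1 (adjusted p = 2.68e-05) and 2.67-fold in YAP-TFE3 (adjusted p = 5.73e-05). Mafk rose 2.15-fold in TAZ-CAMTA1 (adjusted p = 0.000243) and 1.67-fold in YAP-TFE3 (adjusted p = 0.0105). The last of these calls was lost without EV replicate 1 (adjusted p = 0.0724) or YAP-TFE3 replicate 1 (adjusted p = 0.107).
Jun was at 139, 128 and 136 CPM in TAZ-CAMTA1, inside the range of EV (adjusted p = 0.253), and at 83.9, 105 and 136 in YAP-TFE3. The fall in YAP-TFE3 was by 0.69 ± 0.23 on the log2 scale (adjusted p = 0.0432) and overlapped with EV. It was lost with only these groups in the fit (adjusted p = 0.08) and without EV replicate 1 (0.219), EV replicate 3 (0.156), YAP-TFE3 replicate 1 (0.206) or YAP-TFE3 replicate 2 (0.11).
Fosl2 was at 138, 135 and 136 CPM in TAZ-CAMTA1 and at 184, 177 and 181 in YAP-TFE3, just below and just above every EV library, and neither passed the test (adjusted p = 0.469 and 0.269). Junb, at 19.0, 16.4 and 35.1 CPM and at 26.1, 41.6 and 24.2, did not pass it either (adjusted p = 0.69 and 0.262).

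**Figure D3:**
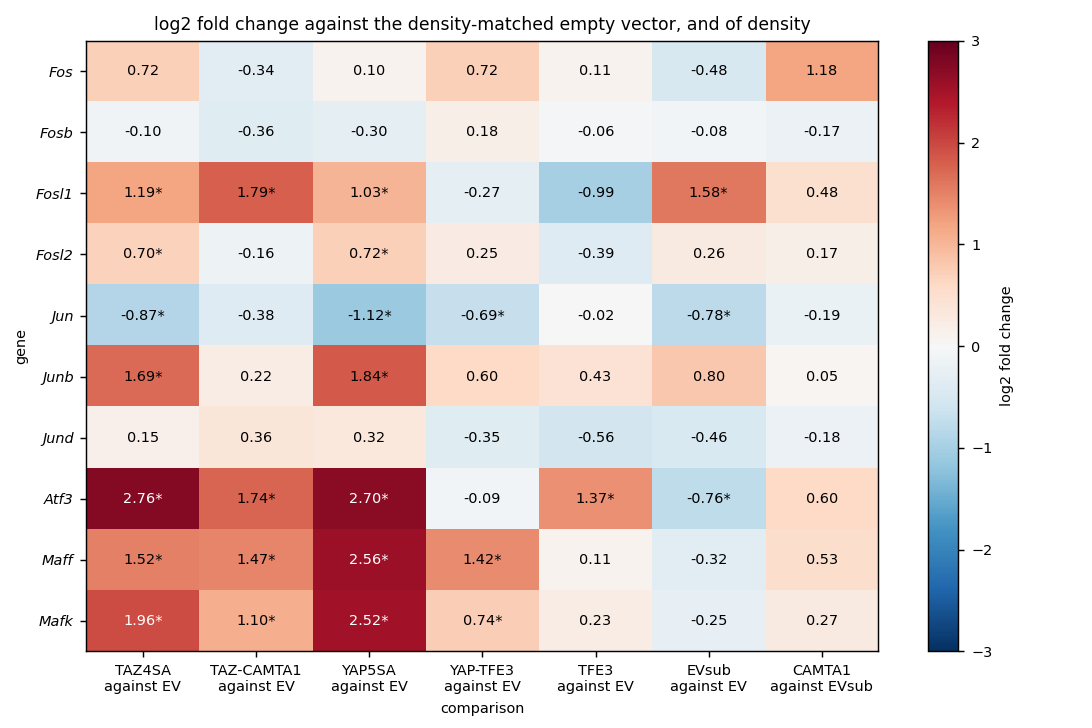
Log2 fold change (values printed in the cells) of the 10 genes in 7 comparisons, each between groups of 3 libraries; * marks an adjusted p under 0.05 in edgeR. Atf3 has the largest value in TAZ4SA and in YAP5SA. Jun is called below 0 in 4 of the 7 columns and lies near 0 in TFE3 (-0.02). All columns but that of CAMTA1 share the 3 EV libraries.

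The direct contrasts asked whether a fusion protein differed from the hyperactive form of its TAZ or YAP part. TAZ-CAMTA1 was below TAZ4SA for 5 of the 10 genes (Fos, Fosl2, Junb, Atf3 and Mafk) and above it for none, where 26.6% of all genes were higher and 28.1% lower. YAP-TFE3 was below YAP5SA for 7 of the 10 (Fosl1, Fosl2, Junb, Jund, Atf3, Maff and Mafk) and above it for none, where 36.4% of all genes were higher and 34.5% lower. The median difference over the 10 genes was -0.56 (log2) for the TAZ pair and -0.91 for the YAP pair, beside 0.00 and 0.05 over all genes. With library totals the scaling factors shifted the differences upward by a mean of 0.18 and 0.36 on the log2 scale. The split of all genes was then 4816 higher and 2950 lower in place of 3813 and 4041 for the TAZ pair, and 7066 and 3386 in place of 5230 and 4954 for the YAP pair.
Atf3 was 2.02-fold lower in TAZ-CAMTA1 than in TAZ4SA (log2 -1.02 ± 0.17; adjusted p = 3.67e-05) and 6.89-fold lower in YAP-TFE3 than in YAP5SA (log2 -2.79 ± 0.19; adjusted p = 3.8e-11). Junb was 2.77-fold lower (log2 -1.47 ± 0.34; adjusted p = 0.000927) and 2.36-fold lower (log2 -1.24 ± 0.33; adjusted p = 0.00217). For both genes and both pairs the groups did not overlap.
Mafk was 1.81-fold lower in the TAZ pair (adjusted p = 0.000697) and 3.46-fold lower in the YAP pair (adjusted p = 4.23e-08). Fosl2 was 1.80-fold lower (adjusted p = 3.09e-05) and 1.39-fold lower (adjusted p = 0.00465), and the second call was lost with library totals (adjusted p = 0.466).
Maff differed by -0.04 ± 0.21 (log2, adjusted p = 0.868) between TAZ-CAMTA1 and TAZ4SA, with an approximate 95% interval from -0.45 to 0.36. Maff was 2.22-fold lower in YAP-TFE3 than in YAP5SA (adjusted p = 3.65e-05). Fosl1 was 0.60 ± 0.30 above TAZ4SA in TAZ-CAMTA1, which missed the threshold (adjusted p = 0.0954), and was 2.46-fold lower in YAP-TFE3 than in YAP5SA (adjusted p = 0.000915).
Jun differed by 0.49 ± 0.23 (adjusted p = 0.0746) in the TAZ pair and 0.43 ± 0.23 (adjusted p = 0.101) in the YAP pair. Both values passed with library totals (0.0125 and 0.00286), without a low-count filter (0.0108 and 0.0238) and with a floor of 10 counts (0.046 and 0.0457), and the TAZ pair's also without TAZ4SA replicate 2 (0.0157), the YAP pair's also with only these groups (0.028) or without YAP-TFE3 replicate 1 (0.0333). The Fosl1 difference in the TAZ pair passed without a low-count filter (0.0129), without TAZ4SA replicate 3 (0.042) and without TAZ-CAMTA1 replicate 1 (0.0398).
Fos and Fosb were not called in the YAP pair, at 0.62 ± 0.42 (adjusted p = 0.191) and 0.49 ± 0.25 (adjusted p = 0.0859). With library totals both were above YAP5SA in YAP-TFE3, Fos by 0.98 (adjusted p = 0.0456) and Fosb by 0.85 (adjusted p = 0.00664), and Fosb also passed with a floor of 10 counts (0.0422).
Fos was at 1.66, 1.12 and 3.31 CPM in TAZ-CAMTA1 and 2.09-fold lower than in TAZ4SA (adjusted p = 0.0399), with overlapping values. That call was lost with library totals (adjusted p = 0.0897), with only these groups in the fit (0.0613), with the replicate number as a block (0.051), and without TAZ4SA replicate 2 (0.10) or 3 (0.0845) or TAZ-CAMTA1 replicate 1 (0.119) or 2 (0.163). Jund was 1.60-fold lower in YAP-TFE3 than in YAP5SA (adjusted p = 0.0102), a call lost with library totals (0.212) and without YAP5SA replicate 1 (0.0936) or YAP-TFE3 replicate 2 (0.0524).

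The difference between the pairs was itself tested, as the TAZ-CAMTA1 minus TAZ4SA difference less the YAP-TFE3 minus YAP5SA difference. It was positive for 5 of the 10 genes (Fosl1, Jund, Atf3, Maff and Mafk) and negative for Fos, where 14.0% of all genes had a positive and 17.5% a negative difference past the threshold. The calls of Jund (0.88 ± 0.32; adjusted p = 0.0379) and Fos (-1.68 ± 0.60; adjusted p = 0.0357) were each lost in 7 of 19 alternatives, among them Jund without TAZ-CAMTA1 replicate 1 (0.56; adjusted p = 0.155) and Fos without YAP-TFE3 replicate 2 (-1.29; adjusted p = 0.126). Fosl1 had the largest value, 1.91 ± 0.44 on the log2 scale (adjusted p = 0.00229), followed by Atf3 at 1.77 ± 0.25 (adjusted p = 2.04e-05) and Maff at 1.10 ± 0.29 (adjusted p = 0.00622). Mafk was at 0.93 ± 0.27 (adjusted p = 0.011). Junb, by contrast, differed between the pairs by -0.23 ± 0.47 (adjusted p = 0.739), an approximate 95% interval from -1.14 to 0.68. Fosl2 passed with library totals, at -0.56 (adjusted p = 0.0244). With library totals the split of all genes was 1412 positive and 3599 negative in place of 2008 and 2508.

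**Figure D4:**
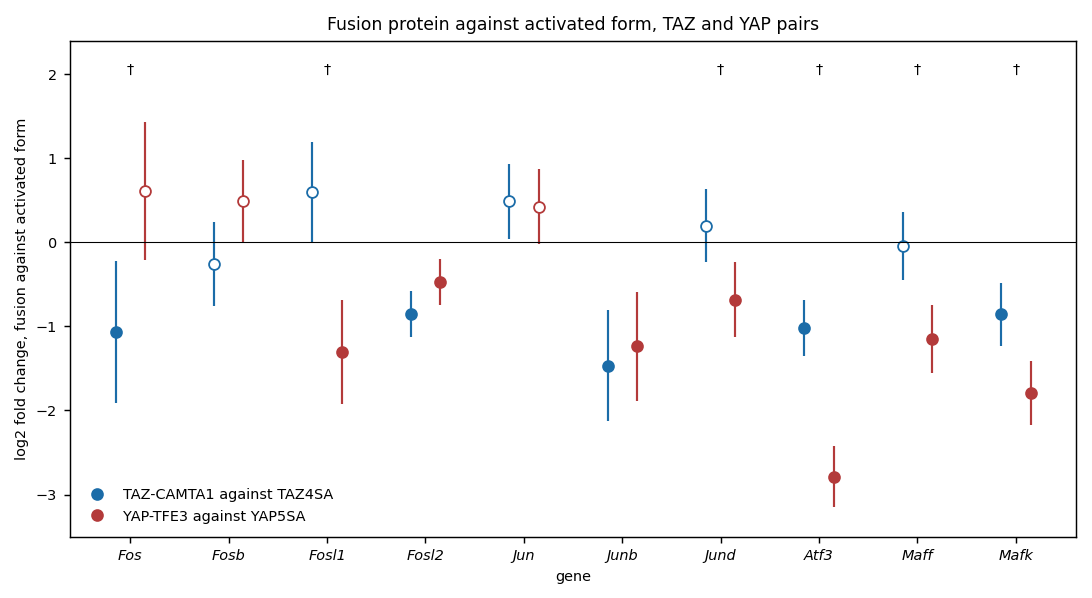
Log2 fold change of each fusion protein against the hyperactive form of its own TAZ or YAP part, with bars of an approximate 95% interval. The bars rest on the SE and the normal distribution, so a bar can exclude 0 where the unadjusted p is above 0.05. Filled points have an adjusted p under 0.05, and a dagger marks genes whose difference between the pairs passed the same threshold. Atf3 lies at -1.02 in the TAZ pair and -2.79 in the YAP pair, and Junb at -1.47 and -1.24.

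Between the hyperactive forms, YAP5SA was above TAZ4SA for 2 of the 10 genes, Maff and Mafk, and below it for none, where 19.6% of all genes were higher and 22.8% lower. The log2 difference was 1.05 ± 0.21 for Maff (2.07-fold; adjusted p = 0.000383) and 0.57 ± 0.19 for Mafk (1.48-fold; adjusted p = 0.019). The Mafk call was lost with only these groups in the fit (adjusted p = 0.105) and without TAZ4SA replicate 1 (0.0862), TAZ4SA replicate 3 (0.129) or YAP5SA replicate 1 (0.0637). For Atf3 the difference was -0.06 ± 0.17 (adjusted p = 0.792; interval from -0.39 to 0.27), and for Fosl2 it was 0.02 ± 0.14 (adjusted p = 0.911; interval from -0.25 to 0.30). With library totals the scaling factors shifted the differences downward by a mean of 0.19, and the split of all genes was 1805 and 4786 in place of 2813 and 3274.
Between the fusions, YAP-TFE3 was below TAZ-CAMTA1 for Fosl1, Jund and Atf3 and above it for none of the 10 genes, where 6.32% of all genes were higher and 5.32% lower. Fosl1 was 4.18-fold lower (log2 -2.06 ± 0.32; adjusted p = 0.000121) and Atf3 3.56-fold lower (log2 -1.83 ± 0.18; adjusted p = 7.35e-07), both with no overlap. Jund was at 59.3, 33.4 and 34.97 CPM in TAZ-CAMTA1 and 24.4, 22.2 and 31.5 in YAP-TFE3 (log2 -0.71 ± 0.22; adjusted p = 0.0417). TAZ-CAMTA1 replicate 1 was far above the other libraries of its group, and without it the difference was -0.39 (adjusted p = 0.271). The call was also lost without YAP-TFE3 replicate 1 (0.141) or 2 (0.155), with the block (0.0542) and with only these groups in the fit (0.0513). Fosl2 was higher in every YAP-TFE3 library than in TAZ-CAMTA1 (log2 0.40 ± 0.14; adjusted p = 0.0635), and passed with DESeq2 (0.0465) and with only these groups in the fit (0.0058). Fos (1.06 ± 0.42; adjusted p = 0.107) passed without a low-count filter (0.0179) and without TAZ-CAMTA1 replicate 3 (0.0444).

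With full-length TFE3 or CAMTA1 few genes passed the test, both within the family and over all genes. In the TFE3 cells 1 of the 10, Atf3, rose against EV and none fell, where 2.36% of all genes rose and 1.02% fell. Atf3 rose 2.58-fold (log2 1.37 ± 0.18; adjusted p = 9e-05), with all 3 TFE3 libraries above EV. Fosl1 was at 5.81, 6.08 and 6.80 CPM in TFE3, below every EV library, with a log2 difference of -0.99 ± 0.33 that missed the threshold (adjusted p = 0.111). It passed the threshold with DESeq2 (0.0386), without a low-count filter (0.0035) and with only these groups in the fit (0.038). Fosl2 was at 120, 115 and 114 CPM, also below every EV library (log2 -0.39 ± 0.14; adjusted p = 0.154). Jund, at 22.5, 24.4 and 20.8 CPM, was below every EV library too (log2 -0.56 ± 0.23; adjusted p = 0.222). With only these groups in the fit both passed (0.0378 for Fosl2 and 0.0074 for Jund).
In CAMTA1, 0 of the 10 genes passed edgeR's test against EVsub, where 1.29% of all genes rose and 0.891% fell. At an unadjusted p under 0.05 there were 3 of the 10 (Fos, Atf3 and Maff) and 18.2% of all genes, and DESeq2 called 0 of the 10. Fos was at 6.82, 3.24 and 2.57 CPM in CAMTA1 and 2.14, 2.35 and 1.06 in EVsub, a log2 difference of 1.18 ± 0.42 (adjusted p = 0.145), with the groups just apart, and passed without a low-count filter (0.0191). The approximate 95% interval of the log2 difference was from -0.10 to 1.07 for Fosl1 and from -0.59 to 0.70 for Junb.

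Cell density was compared between the empty vector groups. At sub-confluence 1 of the 10 genes was higher, Fosl1, and 2 were lower, Jun and Atf3, where 12.5% of all genes were higher and 9.59% lower. Fosl1 was at 37.8, 51.1 and 22.4 CPM in EVsub, above every EV library (2.99-fold; log2 1.58 ± 0.31; adjusted p = 0.00102). It was also high in the other sub-confluent group, CAMTA1, at 47.8, 61.9 and 46.2 CPM. Atf3 was 1.69-fold lower in EVsub (adjusted p = 0.00779), with no overlap, and this call was lost with only these groups in the fit (0.0502). Jun was at 84.8, 135 and 86.6 CPM in EVsub, 1.71-fold lower than EV (adjusted p = 0.0179) and overlapping with it. That call was lost with only these groups in the fit (0.0764) and without EV replicate 1 (0.106), EV replicate 3 (0.0749), EVsub replicate 1 (0.0891) or EVsub replicate 3 (0.061). Junb was at 33.5, 52.2 and 19.7 CPM in EVsub (adjusted p = 0.0925) and passed without a low-count filter (0.00512) and without EVsub replicate 3 (0.0188).

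Ordered by their means, the 8 groups separated to different degrees. For Atf3, 3 of the 7 neighbouring pairs of groups did not overlap, which set TAZ4SA and YAP5SA (means of 32.3 and 30.9 CPM) apart from TAZ-CAMTA1 (15.9), that from TFE3 (12.3) and that from the other 4 groups (2.82 to 4.76). For Maff, YAP5SA (74.0) stood apart at the top, and TAZ4SA, TAZ-CAMTA1 and YAP-TFE3 (35.9, 34.7 and 33.4) overlapped and stood apart from the lower 4 (10.03 to 14.5). Fosl1 separated once, between YAP5SA (25.4) and EV (12.5), with CAMTA1 the highest at 51.9 and TFE3 the lowest at 6.23. For Fos, Fosb and Jund no neighbouring groups were apart. Over the 24 libraries Maff and Mafk had the closest log2 CPM patterns within the family (Pearson r = 0.94), followed by Atf3 and Mafk (r = 0.86), and Fosl2 and Jun had the most opposite ones (r = -0.75). These values are descriptions over libraries that share groups of 3.
Outside the family, the gene most like Maff was Stim1 (r = 0.97), a calcium sensor of the endoplasmic reticulum, followed by Itga7 (0.96) and Orai1 (0.95), the channel that Stim1 opens. Those most like Mafk were Cdc42se2 (0.97), Birc7 (0.96) and Tpd52 (0.96), and most like Atf3 were Plcxd2 (0.92), the clock gene Cry2 (0.89) and the phosphatase gene Dusp16 (0.89). Fosl1 was most like Mybl2 (0.93), Mthfd2 (0.92) and E2f7 (0.92), of which Mybl2 and E2f7 are cell cycle transcription factors. For Fosl2 they were Nfil3 (0.91), Cfap100 (0.91) and Sec23a (0.91). Jun was most like Rundc1 (0.87), Wfdc3 (0.86) and Evl (0.86), Junb like Tcirg1 (0.90), Per3 (0.88) and Ptcd2 (0.88), and Jund like Tbc1d10a (0.82), P3h4 (0.81) and Slc9a3r2 (0.80). For Fos the values were lower, with the immediate-early gene Ier2 first (0.63), then Fastkd5 (0.59) and Agpat5 (0.57), and for Fosb they were Ppp1r3b (0.76), Abhd18 (0.66) and Ptpdc1 (0.65). All are over the same 24 libraries.

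The other genes of the pathway were taken from lists of general knowledge, drawn up with earlier results of these data known. Their shares beside those of all genes are therefore descriptions. Of 20 immediate-early genes outside AP-1, 19 were tested, and in TAZ4SA 12 rose and 4 fell, shares of 63.2% and 21.1% beside 31.1% and 26.4% of all genes, with a median log2 fold change of 0.67 beside 0.05. In YAP5SA 11 rose and 5 fell, 57.9% and 26.3% beside 36.3% and 34.9% of all genes, with a median of 0.61 beside 0.01. Those that rose most in TAZ4SA were Klf4 (log2 2.403 ± 0.17), Btg2 (2.401 ± 0.29) and Zfp36 (2.31 ± 0.32), and in YAP5SA they were Btg2 (2.65 ± 0.29), Zfp36 (2.60 ± 0.32) and Klf10 (2.48 ± 0.30). The Egr genes, zinc finger factors of the same serum response, fell. Egr1 was at 136 ± 20.9 CPM in EV, 55.0 ± 25.8 in TAZ4SA and 6.90 ± 1.68 in YAP5SA, and Egr2 at 13.6 ± 1.63, 0.413 ± 0.187 and 0.0881 ± 0.0215. Egr3 fell by 3.10 in TAZ4SA and by 4.62 in YAP5SA on the log2 scale, fitted values that depend on the prior count where its counts were low. In TAZ-CAMTA1 6 of the 19 rose and 1 fell (31.6% and 5.26%, beside 12.5% and 8.98% of all genes), and the same counts were found in YAP-TFE3 (beside 10.6% and 4.74%). In TFE3 0 rose and 2 fell (10.5%, beside 1.02% of all genes), in CAMTA1 3 rose (15.8%, beside 1.29%), and in EVsub 3 rose and 1 fell (15.8% and 5.26%, beside 12.5% and 9.59%).
Of 7 other AP-1 dimer partners, 3 were tested, and Atf2 fell in TAZ4SA (log2 -0.56 ± 0.11) and in YAP5SA (-0.91 ± 0.11). The other tested partners were not called in these groups. The share that fell, 33.3%, is near those of all genes, 26.4% in TAZ4SA and 34.9% in YAP5SA. Of 11 other Maf, CNC and Bach factors, the family the small Maf proteins pair within, 7 were tested. In TAZ4SA 3 rose (Nfe2l1, Bach2 and Mafg) and 2 fell (Maf and Bach1), and in YAP5SA 2 rose (Nfe2l1 and Bach2) and the same 2 fell, shares of 42.9% and 28.6% in TAZ4SA and 28.6% for each direction in YAP5SA, beside those of all genes given above. Nfe2l1 was at 350 ± 23.0 CPM in EV, 693 ± 91.2 in TAZ4SA and 666 ± 34.1 in YAP5SA. Bach1 was at 77.1 ± 3.93, 46.6 ± 3.24 and 43.1 ± 5.72 CPM, and the large Maf gene Maf at 39.4 ± 9.75, 1.51 ± 0.429 and 1.15 ± 0.751. Mafg, the remaining small Maf gene, had a log2 fold change of 0.30 ± 0.09 in TAZ4SA.
Among 16 kinases and phosphatases that act upstream of AP-1, 14 were tested, of which 6 rose and 2 fell in TAZ4SA (42.9% and 14.3%, beside 31.1% and 26.4% of all genes) and 6 rose and 6 fell in YAP5SA (42.9% each, beside 36.3% and 34.9%, so near the share of all genes). The MAP kinase phosphatase gene Dusp4 rose most in both (log2 1.72 ± 0.27 and 1.76 ± 0.27), and Mapk3, which encodes ERK1, followed (0.82 ± 0.15 and 0.98 ± 0.15). Map2k1 was the next in TAZ4SA (0.59 ± 0.09) and Map2k2 in YAP5SA (0.93 ± 0.13). Rps6ka3 (-0.41 ± 0.16) and Map2k4 (-0.27 ± 0.11) fell in TAZ4SA, and Dusp6 (-0.88 ± 0.26), Rps6ka3 (-0.85 ± 0.16) and Dusp5 (-0.82 ± 0.22) were the largest falls in YAP5SA.

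Of 20 genes described as AP-1 targets, 17 were tested. In TAZ4SA 6 rose and 6 fell (median log2 fold change 0.30, beside 0.05 over all genes), and the same counts were found in YAP5SA (median -0.44, beside 0.01). That is 35.3% in each direction, beside 31.1% and 26.4% of all genes in TAZ4SA and 36.3% and 34.9% in YAP5SA, so the list's counts are near those of all genes. Ptgs2, which encodes cyclooxygenase 2, was at 8.09 ± 6.15 CPM in EV, 187 ± 43.6 in TAZ4SA and 346 ± 34.0 in YAP5SA. Plaur, the urokinase receptor, was at 6.76 ± 1.21, 52.4 ± 8.71 and 79.7 ± 21.0 CPM. The osteopontin gene Spp1 went the other way, from 1881 ± 399 CPM in EV to 69.6 ± 51.3 and 26.5 ± 9.82. The metallothionein gene Mt2 was at 119 ± 36.7, 6.64 ± 4.67 and 1.87 ± 0.419 CPM, and the gelatinase gene Mmp9 at 19.4 ± 4.51, 1.09 ± 0.479 and 0.266 ± 0.17. All of these differences from EV passed the test. In TAZ-CAMTA1 6 rose and 2 fell (35.3% and 11.8%, beside 12.5% and 8.98% of all genes), and in YAP-TFE3 also 6 and 2 (beside 10.6% and 4.74%). In EVsub 7 rose and 3 fell (41.2% and 17.6%, beside 12.5% and 9.59%), in TFE3 0 and 1 (5.88%, beside 1.02%), and in CAMTA1 1 and 1 (5.88% each, beside 1.29% and 0.891%).

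**Figure D5:**
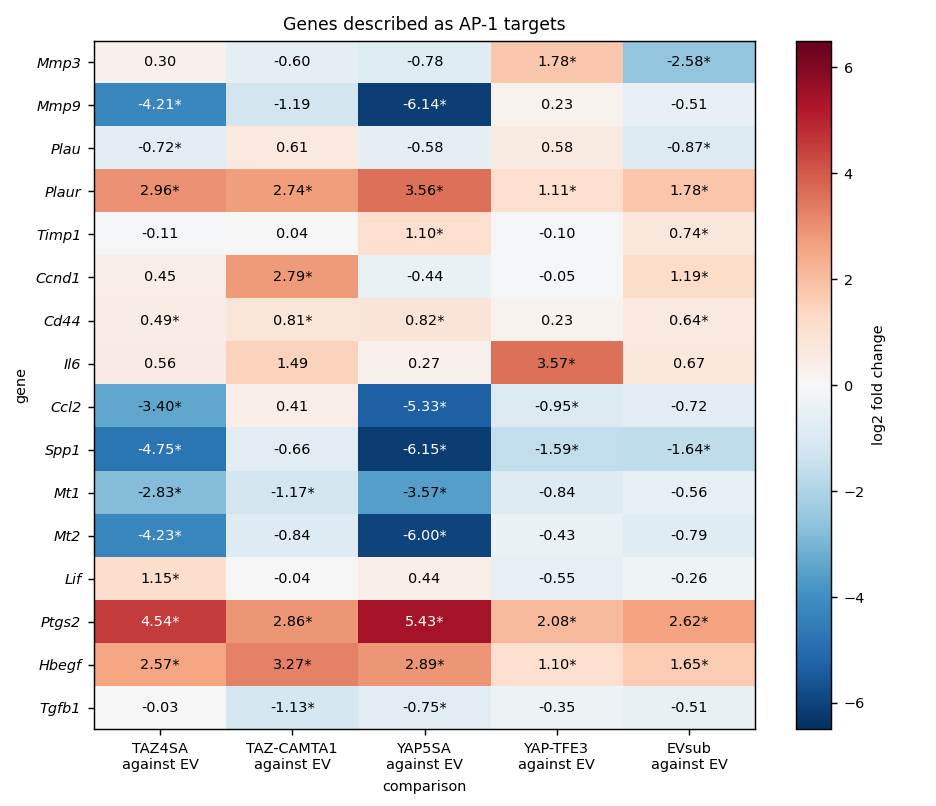
Log2 fold change (values printed in the cells) of 16 of the 17 tested genes described as AP-1 targets in 5 comparisons with EV, which share the 3 EV libraries; * marks an adjusted p under 0.05. Ptgs2, Plaur and Hbegf carry a call above 0 in all 5 columns, and Spp1 is called below 0 in 4 of them.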

How the data were processed

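The files deposited for the 24 libraries hold unnormalized counts, 1 whole number per Ensembl gene. Per the methods, stranded libraries of polyadenylated RNA were read as 75 bp pairs, and bcbio-nextgen 1.0.8 ran Hisat2 against mm10 (annotation: Ensembl 97). The counting program and its use of strand are not given in the sources used here, so overlapping genes may share reads. The authors' own gene lists came from another quantification and were not used. Groups and replicate numbers came from the sample labels, which for YAP-TFE3 replicate 3 conflict (the title was used). Symbols, exons and coordinates were taken from GENCODE M21 (GRCm38, mm10), which matched 37693 of 39017 identifiers.

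Counts were tested with edgeR 4.0.16 in R 4.3.3 (quasi-likelihood test, TMM, 1 coefficient per group, all 24 libraries in 1 fit) on the 14361 genes whose mean count reached 5, with Benjamini-Hochberg adjustment over these genes and a threshold of 0.05. An error of a log2 value is its SE and of a level its SD over 3 libraries. The p-values set a difference against the spread between libraries within groups, which was estimated over all 8 groups together. Every pair of replicates differed by more than counting noise (chi-square over genes). The test was checked on simulated data for TAZ4SA against EV, in which only a small share of genes changed. That check does not cover changes in a large share of genes, as called in TAZ4SA and YAP5SA. Correlations used log2 CPM with a prior count of 2, over genes whose mean count reached 50. The members and gene lists were chosen with earlier results of these data known. All 10 members were named, with the 3 genes most like each and up to 3 list genes per direction (mean count of 50 or more) for TAZ4SA and YAP5SA against EV; 1 of these list genes is not reported here. Alternatives were DESeq2 1.42.0, its size factors, library totals, no filter (24737 genes), a floor of 10 counts per library (11461 genes), a replicate-number block, a fit of only the groups compared, and each library left out. Other steps ran in Python 3.11.15 (matplotlib 3.10.9, numpy 2.4.6, pandas 2.3.3).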

Additional observations from a re-analysis of the deposited data

Results flagged for a closer look

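For 6 of the 10 genes the difference between a fusion protein and the hyperactive form differed between the TAZ pair and the YAP pair, by edgeR's quasi-likelihood test of the interaction with Benjamini-Hochberg adjustment. The values are the TAZ pair's log2 difference less the YAP pair's. For Fosl1 it was 1.91 (adjusted p = 0.00229), from 0.60 in the TAZ pair and -1.30 in the YAP pair. For Atf3 it was 1.77 (adjusted p = 2.04e-05), from -1.02 and -2.79, so that Atf3 was lower with both fusions and by more with YAP-TFE3. For Maff it was 1.10 (adjusted p = 0.00622), from -0.04 and -1.15, and for Mafk 0.93 (adjusted p = 0.011), from -0.86 and -1.79. Jund gave 0.88 (adjusted p = 0.0379), from 0.20 and -0.68, and Fos gave -1.68 (adjusted p = 0.0357), from -1.07 and 0.62. The values of Jund and Fos depend on single libraries. The Jund value was 0.56 (adjusted p = 0.155) without TAZ-CAMTA1 replicate 1, the highest Jund library, and also missed the threshold without TAZ4SA replicate 1 (0.106), YAP5SA replicate 1 (0.131), YAP-TFE3 replicate 1 (0.0786) or YAP-TFE3 replicate 2 (0.0956), with library totals (0.0981) and with only these groups in the fit (0.0796). The Fos value was lost without TAZ4SA replicate 2 (0.0512) or 3 (0.067), TAZ-CAMTA1 replicate 1 (0.0761) or 2 (0.0973), YAP5SA replicate 2 (0.0613) or 3 (0.0908), or YAP-TFE3 replicate 2 (-1.29, adjusted p = 0.126).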

How the results depend on the processing

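Of the 48 calls for the 10 genes over 12 comparisons, 36 held under every alternative run, and no called value turned its direction. Over 660 reruns of those calls, 612 kept the call and 48 lost it, and 29 reruns of uncalled values gained one. The calls that were lost or gained are named beside their values in the report. The lowest counts were those of Fos and Fosb, at 24 to 189 and 30 to 101 a library. With 3 libraries a group only differences well above the spread can pass.

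No comparison showed a pairing of libraries by replicate number under 2 rules. In none did every same-number pair correlate above 0.1. In none did all 3 libraries of the first group correlate best with their own number. These rules cannot exclude a weaker pairing. For CAMTA1 and EVsub the same-number values were 0.25, 0.00 and 0.41 (mean 0.22, beside -0.11 for other numbers). There 2 of the 3 CAMTA1 libraries correlated best with their own number. With the replicate number as a block the calls among the 10 genes were 7 (TAZ4SA against EV), 4 (TAZ-CAMTA1 against EV), 7 (YAP5SA against EV), 3 (YAP-TFE3 against EV), 1, 0 and 3 (TFE3, CAMTA1 and EVsub), 4 and 7 (the fusion against the hyperactive form, TAZ and YAP pair), 2 and 2 (the hyperactive forms and the fusions against each other) and 6 for the difference between the pairs. Fos in TAZ-CAMTA1 against TAZ4SA and Jund in YAP-TFE3 against TAZ-CAMTA1 were the calls lost under the block.

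Counts of members called changed by more than 1.5 times as follows. TFE3 against EV had 1, and 2 with DESeq2, 2 with no filter and 4 with only the groups compared. CAMTA1 against EVsub had 0, and 1 with no filter. EVsub against EV had 3, and 1 with only the groups compared. YAP5SA against TAZ4SA had 2, and 1 with only the groups compared, and 1 to 2 with a library left out (1 without TAZ4SA replicate 1 or 3 or YAP5SA replicate 1). YAP-TFE3 against EV had 3, and 1 to 3 with a library left out (1 without EV replicate 1 or YAP-TFE3 replicate 1). Over all genes, leaving out a library gave 2010 to 3198 calls for TAZ-CAMTA1 against EV (3088 with all; lowest without EV replicate 1 or 3 or TAZ-CAMTA1 replicate 2 or 3), 1133 to 2266 for YAP-TFE3 (2203; lowest without EV replicate 3 or YAP-TFE3 replicate 1), 192 to 286 for TFE3 (485; each of the 6), 72 to 710 for CAMTA1 (313; all but CAMTA1 replicate 3, highest without EVsub replicate 1), 1971 to 3668 for EVsub (3173; lowest without EV replicate 3 or EVsub replicate 2) and 835 to 1549 for YAP-TFE3 against TAZ-CAMTA1 (1671; lowest without TAZ-CAMTA1 replicate 2 or 3 or YAP-TFE3 replicate 1). With only the groups compared there were 1512 calls for TFE3, 22 for CAMTA1, 1683 for EVsub, 2910 for YAP5SA against TAZ4SA (6087 in the report's fit) and 2572 for YAP-TFE3 against TAZ-CAMTA1. For CAMTA1 DESeq2 gave 636 and no filter 674. The cause was not tested.

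Uncalled values near 0 changed sign. With library totals these were Jund in TAZ4SA (-0.0267) and in YAP5SA (-0.0482) against EV, Fos in YAP5SA against EV (-0.27), Maff in TAZ-CAMTA1 against TAZ4SA (0.16), Fosl2 (-0.16) and Jund (-0.0214) in YAP5SA against TAZ4SA, and Jun in the difference between the pairs (-0.11). With at least 10 counts in every library they were Maff in TAZ-CAMTA1 against TAZ4SA (0.0048) and Fosl2 in YAP5SA against TAZ4SA (-0.0048). With a library left out, the ranges that crossed 0 were, against EV, -0.24 to 0.38 for Fos and YAP5SA, -0.0646 to 0.39 for Fos and TFE3, -0.24 to 0.12 for Fosb and TFE3, -0.28 to 0.0878 for Fosb and EVsub, -0.48 to 0.0848 for Fosl1 and YAP-TFE3, -0.24 to 0.16 for Jun and TFE3, -0.19 to 0.42 for Junb and TAZ-CAMTA1, and -0.0246 to 0.22 for Maff and TFE3. Against EVsub they were, for CAMTA1, -0.34 to 0.034 for Fosb, -0.32 to 0.0571 for Jun and -0.23 to 0.46 for Junb. For YAP5SA against TAZ4SA they were -0.21 to 0.12 for Atf3, -0.31 to 0.0558 for Fosl1, -0.0738 to 0.14 for Fosl2, -0.46 to 0.0028 for Jun, -0.0593 to 0.66 for Junb and -0.0523 to 0.33 for Jund. For TAZ-CAMTA1 against TAZ4SA they were -0.12 to 0.35 for Jund and -0.31 to 0.23 for Maff, for YAP-TFE3 against TAZ-CAMTA1 -0.20 to 0.11 for Maff, and for the difference between the pairs -0.15 to 0.31 for Jun and -0.64 to 0.28 for Junb.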
